A study of Mus musculus with 7 samples.

Results

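The Hedgehog genes described here are the ligands Dhh and Ihh, the receptors Ptch1 and Smo, the transcription factors Gli1, Gli2 and Gli3, and the inhibitor Hhip. They are 8 of the 31053 genes counted, and each was found as a single entry under its symbol. The study followed the fetal and neonatal ovary of C57BL/6J mice by single-cell RNA sequencing. Wild-type, untreated gonads were pooled, dissociated with trypsin and loaded as 1 droplet library at each of 7 ages. Before birth these were E11.5 and E12.5, and then E14.5, E16.5 and E18.5. After birth they were P1 and P5. The E11.5 library is labelled gonad and the other 6 are labelled ovary. Of the 50823 cells with at least 200 genes, 12535 were taken as pregranulosa cells (at least 3 UMIs, or counted molecules, of Wnt6 and Kitl together). A further 10458 were taken as stroma (at least 10 UMIs of Col1a1, Col1a2 and Col3a1 together). Cells that met the rules of several classes (3801) or of none (14955) were kept apart.

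Hedgehog proteins are secreted signals that act over short distances. In the absence of ligand, Ptch1 holds Smo inactive, and when ligand binds Ptch1, Smo signals through the primary cilium to the Gli proteins. Gli1, Ptch1 and Hhip are transcribed in response to the signal in most tissues, so their RNA is used as its readout. Hhip binds and sequesters ligand, and Ptch1 both receives the signal and limits it. In the ovary, Dhh and Ihh are known as products of granulosa cells and theca precursors as responding cells, and in the testis Dhh is known as a product of Sertoli cells.

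The upstream sequences of a ligand and of the response genes were read to show what the promoters share. RefSeq windows on GRCm38.p6 matched 7 of the 8 members; there was none for Gli1. The 250 bases before the start are given for Dhh, a ligand, and for Ptch1 and Hhip, a receptor and an inhibitor that are transcriptional targets elsewhere. The windows precede the start that RefSeq lists, which for Ptch1 and Gli3 lies inside the gene as GENCODE annotates it. The printed windows lie on the minus strand at chr15:98898541-98898790 (Dhh), chr13:63565736-63565985 (Ptch1) and chr8:80058009-80058258 (Hhip). They are written 5′ to 3′ on the gene's strand, with GC boxes (GGGCGG on either strand) in capitals.
Dhh: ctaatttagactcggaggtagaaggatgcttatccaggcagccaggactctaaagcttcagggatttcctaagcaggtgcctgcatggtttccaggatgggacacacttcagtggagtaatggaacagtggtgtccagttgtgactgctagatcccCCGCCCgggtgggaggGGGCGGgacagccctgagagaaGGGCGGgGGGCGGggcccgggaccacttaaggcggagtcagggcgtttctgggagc
Ptch1: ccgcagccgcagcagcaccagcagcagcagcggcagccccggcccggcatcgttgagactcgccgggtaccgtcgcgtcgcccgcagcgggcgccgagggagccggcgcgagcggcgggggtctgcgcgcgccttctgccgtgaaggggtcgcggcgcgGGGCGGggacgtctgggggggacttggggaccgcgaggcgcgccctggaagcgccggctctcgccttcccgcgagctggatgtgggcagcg
Hhip: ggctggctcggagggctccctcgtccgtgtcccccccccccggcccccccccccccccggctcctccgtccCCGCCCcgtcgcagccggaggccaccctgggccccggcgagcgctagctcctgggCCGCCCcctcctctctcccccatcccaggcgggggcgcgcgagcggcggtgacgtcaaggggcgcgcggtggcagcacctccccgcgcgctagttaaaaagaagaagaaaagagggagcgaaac
A GC box stood in 6 of the 7 windows, against 32.7% of all 32851 windows of this length, with 4 copies in Dhh, 2 in Hhip and 1 in Ptch1. GC content was 59.6% for Dhh, 78.4% for Ptch1 and 76.0% for Hhip, against a median of 52.4%. The Gli binding motif GACCACCCA was found in 0 of the 7 windows on either strand (0.225% of all windows), and TATAAA in 0 of 7 (12.4%). These matches describe the letters of the windows only.

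The libraries held 3848 to 11060 cells each, 31960736 to 124390521 UMIs in all and a median of 6349 to 11060 UMIs per cell. Each age is 1 library, so age and library cannot be told apart, and the intervals on single libraries cover counting error only. The class labels were checked on genes that the rules did not use. All 3 pregranulosa markers (Foxl2, Wnt4, Fst) and all 4 stroma markers (Nr2f2, Pdgfra, Dcn, Tcf21) were highest in their own class over the series, as were the 3 markers each of the germ, endothelial and immune classes. The class called epithelial is named by its rule only, because Lgals7 was not highest in it and its 3 summed markers were 15.9 to 3290 CPM there and 461 to 1790 CPM in pregranulosa cells. The summed stroma markers were 653 to 3090 CPM (UMIs of a gene per 1000000 UMIs of the class in a library) in stroma and 36.4 to 225 in pregranulosa cells. The summed pregranulosa markers were 241 to 1530 CPM in pregranulosa cells and 69.6 to 384 in stroma. Foxl2, which defines the female supporting lineage, was only 4.19 CPM in the E11.5 pregranulosa class against 382.9 at P5, and it reached 165.0 CPM in stroma at P5. UMIs of 4 Y-linked genes were found in 28.4% of the E11.5 cells, in 7.10% of those of the E12.5 library labelled ovary, and in 0 to 17 cells of each other library. Barcodes of the E16.5 library began as none of the others did, and it shared 0 to 3 barcodes with each of them, while pairs of the other 6 shared 22 to 136.

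Dhh UMIs lay mainly in cells that met the pregranulosa rule, 604 of 768 (78.6%), and most of these came from E12.5 and P5. Of the 434 UMIs at E12.5, 325 lay in 100 cells with a Y-linked UMI and no Xist, described below. In the order of the ages the pregranulosa level of Dhh was 2.26, 22.8, 0.858, 0.304, 0.311, 0.784 and 8.67 CPM. The levels thus formed peaks at E12.5 (434 UMIs) and P5 (119 UMIs) with 3 to 23 UMIs in each library between them. In stroma Dhh was 0.0435, 0.127, 0.448, 0.0862, 0.525, 0 and 0.271 CPM at the same ages, 13 UMIs in all.

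The E12.5 peak lay mainly in cells with Y-linked RNA. The 100 pregranulosa-rule cells with a Y-linked UMI and no Xist held 325 of the 434 Dhh UMIs, or 203 CPM (interval 182 to 227), with the Sertoli cell genes Sox9 at 363.6 CPM and Amh at 702 CPM and with Foxl2 at 6.88 CPM. The 1321 cells with Xist and no Y-linked UMI held 29 Dhh UMIs, or 1.74 CPM (1.16 to 2.49), with Sox9 at 37.2, Amh at 4.97 and Foxl2 at 62.7 CPM. At E11.5 Dhh was low in both kinds of cell, 0.939 CPM in 92 Y-positive and 2.45 in 131 Xist-positive cells. In Xist-positive cells alone the pregranulosa series of Dhh was 2.45, 1.74, 0.860, 0.306, 0.311, 0.803 and 9.0 CPM from E11.5 to P5, so that P5 stood above every earlier age.

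The P5 level stood far above that of P1. The pregranulosa Dhh level at P5 was 11.1 times that at P1 (95% interval 5.43 to 26.2, counting error of 1 library at each age). A Dhh UMI was present in 6.63% of P5 pregranulosa cells (median 8266 UMIs), 0.123% of P5 stroma cells (median 5670 UMIs) and 0 of 57 P5 germ cells, which allows a share of up to 5.26%. With every cell thinned to 2000 UMIs the pregranulosa share was 1.67%. Germ cells, which are not known to make Dhh, served as the measure of free RNA. At E14.5 pregranulosa Dhh was above the germ cell level of 0.0903 CPM (0.0186 to 0.264), with 0.550% of pregranulosa and 0.120% of germ cells positive at medians of 6288.5 and 12546 UMIs. Its interval (0.544 to 1.29) overlapped that of E14.5 stroma (0.0543 to 1.62, 2 UMIs). At E16.5, E18.5 and P1 the intervals of the pregranulosa and germ cell levels overlapped, so Dhh was not detectable there above the germ cell level at this depth. The stroma interval overlapped the pregranulosa one at E16.5 and E18.5 too. At P1 stroma had 0 UMIs, with an interval up to 0.292 CPM, below the pregranulosa interval of 0.339 to 1.55.

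Ihh was scarcer and followed the late part of the same course. In pregranulosa cells it was 1.61, 0.105, 0.112, 0.152, 0.207, 0.294 and 2.62 CPM from E11.5 to P5. Counts were 2 to 5 UMIs in every library before P5 and 36 UMIs at P5, where 1.92% of the cells had one, against 0.0820% of stroma cells. At P5 the pregranulosa level in CPM (interval 1.84 to 3.63) stood above that of germ cells (0.326, 0.00824 to 1.81), which rested on 1 UMI in 57 cells. Those germ cells had a median of 59953 UMIs, against 8266 in the 1508 pregranulosa cells. Whether the classes differed in Ihh UMIs per cell was not tested. The difference between P1 and P5 was 8.92 times (2.82 to 45.3). The 5 UMIs at E11.5 came from 1 cell. In stroma Ihh was 0.522 CPM at E11.5 (12 UMIs in 9 cells) and 0 to 0.224 CPM at the later ages.

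**Figure D1:**
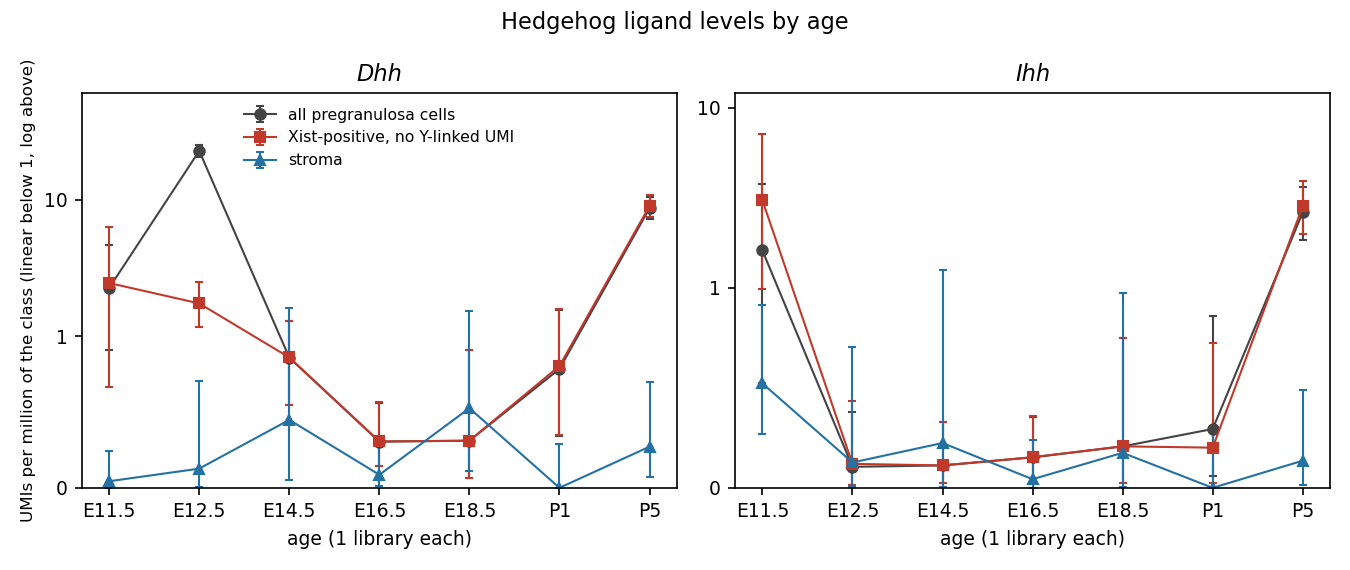
Dhh and Ihh levels by age, in CPM on an axis linear below 1 and log above, for all pregranulosa cells, those with Xist and no Y-linked UMI, and stroma, 1 library per age, with 95% Poisson intervals. The E12.5 Dhh level in all pregranulosa cells (22.8) is far above that in the Xist-positive cells (1.74), and from E12.5 on Ihh stands highest at P5; at E11.5 the level of all pregranulosa cells rests on 5 UMIs of 1 cell and that of stroma on 12 UMIs.

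At P5 both ligands were concentrated in the cells that carried the marks of growing follicles, a state defined by at least 3 UMIs of Amh, Esr2 and Nr5a2 together. In these 428 granulosa cells Dhh was 16.8 CPM (13.4 to 20.9) against 4.27 in the other 1080 pregranulosa cells, a ratio of 3.95 (2.65 to 5.96). Ihh was 6.03 against 0.786 CPM, a ratio of 7.67 (3.29 to 20.7). Ptch1 differed the other way, 66.7 against 100.7 CPM, a ratio of 0.662 (0.581 to 0.753). Ihh was 9.45 CPM (11 UMIs) in the 100 cells with a Dhh UMI and 1.99 CPM (25 UMIs) in the rest, a ratio of 4.75 (2.11 to 10.0). The part of the growing-follicle marks in this ratio was not tested. These values are from 1 library and carry no test.

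Most Ihh in the series lay outside the gonadal classes. Unclassified cells held 65.9% of its 425 UMIs and pregranulosa cells 13.2%. The highest level of Ihh at E11.5 was in the epithelial class, at 10.5 CPM (33 UMIs in 10 of 239 cells), and unclassified cells had 5.14 CPM. At E11.5, 168 cells had 321 Ihh UMIs, and 124 of them (73.8%) also had Shh, the other ligand of the family, which was 257 CPM over the 168 cells. The genes that led these cells over the other E11.5 cells included Onecut2, Rbp4, Lgals2 and Sfrp5, the gut transcription factor Cdx2, the endodermal factor Foxa1 and the apolipoprotein gene Apoa1. Shh had 1140 UMIs at E11.5 and at most 18 in any other library. The E11.5 cells with Ihh had 0 Gli1 UMIs.

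Endothelial cells also had Dhh, in counts of a few UMIs. Endothelial Dhh was 9.58 CPM at E11.5 (9 UMIs in 65 cells) and 10.8 CPM at E14.5 (7 UMIs in 89 cells). It was 0 to 2.56 CPM in the other 5 libraries, with at most 1 UMI in each. Dhh was at 0 in immune and epithelial cells and at most 0.378 CPM in germ cells. Cells that met no class rule also had both ligands at P5. In these 1187 cells Dhh was 6.30 CPM (36 UMIs, 4.41 to 8.72) and Ihh 1.75 CPM (10 UMIs, 0.839 to 3.22). Both intervals overlapped those of the P5 pregranulosa class.

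Gli1, the most direct readout of the signal among the Gli factors, was higher in stroma than in pregranulosa cells at every age. Its stroma level was 10.2, 10.1, 4.48, 14.4, 10.9, 7.68 and 15.4 CPM from E11.5 to P5. In pregranulosa cells it was 2.26, 0.788, 0.224, 0.183, 0.207, 0 and 0.364 CPM at the same ages. The lowest stroma level (4.48, at E14.5) was above the highest pregranulosa level (2.26, at E11.5). The counting intervals of these levels overlapped (2.74 to 6.92 and 0.908 to 4.65), while within each library those of the classes did not. The share of stroma cells with a Gli1 UMI was 2.80 to 12.3%, and the share of pregranulosa cells was 0 to 2.32%, both at full depth without thinning. The order of the stroma levels was P5, E16.5, E18.5, E11.5, E12.5, P1 and E14.5, and the counting intervals of every pair of neighbours in that order overlapped, while those of P5 and E14.5 did not.

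Ptch1 was high in both classes and had its minimum in stroma in the middle of the series. In stroma it was 49.5, 55.1, 17.3, 22.6, 23.5, 22.3 and 75.5 CPM in the order of the ages. In pregranulosa cells it was 24.2, 56.7, 37.2, 61.0, 30.4, 69.9 and 88.8 CPM. Stroma was thus above pregranulosa cells at E11.5 only. The intervals of the classes overlapped at E12.5 and E18.5. In Xist-positive cells at E12.5 Ptch1 was 50.9 CPM in pregranulosa cells and 49.5 CPM in stroma. Stroma Ptch1 at E14.5 was 0.313 times that at E12.5 (0.242 to 0.400), and at P5 it was 3.38 times that at P1 (2.97 to 3.87). Foxl2 was also found in P5 stroma, and the part of pregranulosa RNA in the P5 stroma level of Ptch1 was not tested.

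Hhip in stroma followed the same early and late course with a deeper gap. It was 5.61 CPM at E11.5 (129 UMIs) and 5.32 at E12.5 (42 UMIs). From E14.5 to P1 it had 1, 0, 0 and 1 UMIs in turn, and at P5 1.76 CPM (26 UMIs). The 0 counts allow, at 3 counts, up to 0.129 CPM at E16.5 and 0.525 CPM at E18.5. Between P1 and P5 the ratio was 22.3, with a counting interval of 3.66 to 914 because P1 had 1 UMI. In pregranulosa cells Hhip was 2.26, 1.89, 1.01, 0.335, 0.414, 0.294 and 0 CPM, lower at each later age but for E18.5. Germ cell Hhip was 0.271 CPM at E14.5, below the pregranulosa interval of 0.664 to 1.47. These were 9 UMIs in 2492 germ cells and 27 in 3998 pregranulosa cells, at medians of 12546 and 6288.5 UMIs per cell. Whether the classes differed in Hhip UMIs per cell was not tested. At E16.5 germ cell Hhip was 1.065 CPM (22 UMIs), above the pregranulosa interval of 0.167 to 0.599. At E12.5 and from E18.5 to P5 the intervals overlapped. From E16.5 on pregranulosa Hhip thus did not stand above the germ cell level. It did stand above stroma at E16.5, where stroma had 0 UMIs and an interval up to 0.159 CPM. At E18.5 and P1 the stroma and pregranulosa intervals overlapped. Germ cell Hhip at E16.5 was above stroma too, and whether it was free RNA was not tested. The 3 response genes therefore differed in stroma between E16.5 and P1, where Gli1 was 7.68 to 14.4 CPM and Hhip at most 1 UMI.

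The other receptor and transcription factors were present in stroma at every age. Smo, the signal transducer, was 66.5 to 143.4 CPM in stroma and 51.6 to 104.4 in pregranulosa cells. Gli2, the main activator, was 9.97 to 23.5 CPM in stroma and 0.597 to 6.77 in pregranulosa cells, with its lowest pregranulosa levels from E14.5 to E18.5. Gli3, which acts mainly as a repressor, was 21.9 to 63.9 CPM in stroma and 9.99 to 23.5 in pregranulosa cells. All 3 were higher in stroma than in pregranulosa cells in each of the 7 libraries, but the Smo intervals of the classes overlapped at E12.5 and E14.5. In Xist-positive cells at E12.5 Smo was 66.1 CPM in stroma and 66.9 CPM in pregranulosa cells. Within stroma all 3 were highest at E16.5, the library whose barcodes stood apart. Smo was highest at E16.5 in pregranulosa, germ, endothelial, immune and unclassified cells too, and the part of that library in these levels was not tested.

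**Figure D2:**
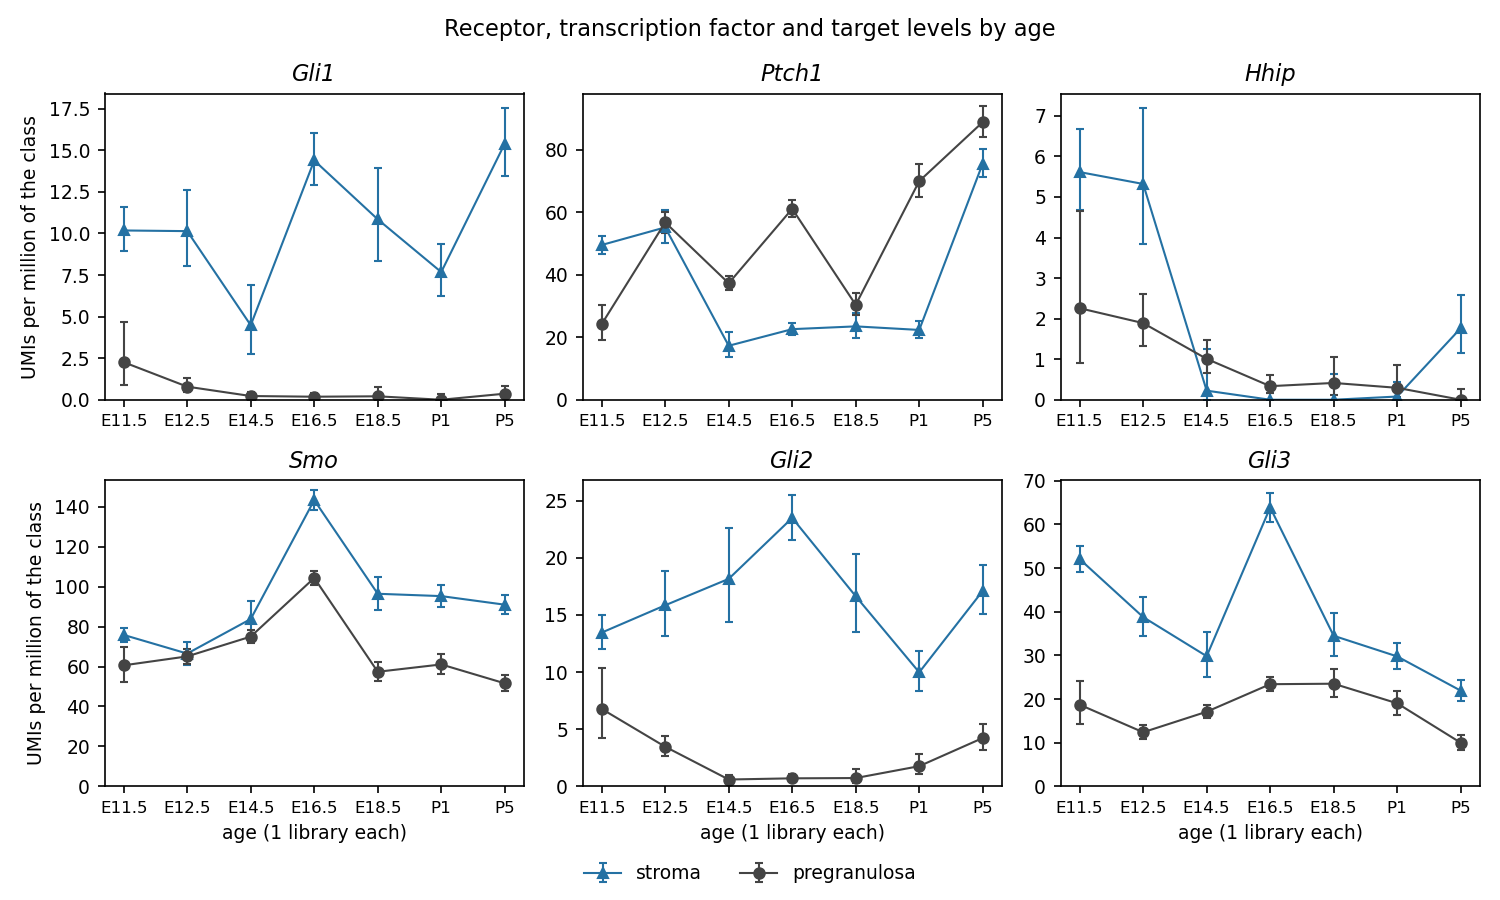
Gli1, Ptch1, Hhip, Smo, Gli2 and Gli3 levels by age in stroma and pregranulosa cells, in CPM, 1 library per age, with 95% Poisson intervals. Gli1 and Gli2 separate the classes in every library, and stroma Hhip is near 0 from E14.5 to P1. Ptch1 is higher in pregranulosa cells from E12.5 on, with overlapping intervals at E12.5 and E18.5.

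The levels of stroma and pregranulosa cells were compared over the 7 libraries with edgeR's quasi-likelihood test on summed counts, with Benjamini-Hochberg adjustment over all genes tested and the library as a block. Of the 15475 genes tested 53.3% differed, 25.8% higher and 27.4% lower in stroma, and of the 8 members 6 differed, 4 higher and 2 lower in stroma. The median log2 difference was 0.49 over the members and -0.03 over all genes. Gli1 was higher in stroma by 4.80 ± 0.55 on the log2 scale (SE, adjusted p = 0.000129), Gli2 by 3.18 ± 0.54 (adjusted p = 0.0011) and Gli3 by 1.21 ± 0.14 (adjusted p = 0.000125). Smo was higher by 0.56 ± 0.13 (adjusted p = 0.0048). As these are sums over cells, fewer expressing cells and less RNA per cell cannot be told apart.

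The ligands differed in the opposite direction. Dhh was -3.93 ± 0.93 in stroma against pregranulosa cells (adjusted p = 0.0064), and -2.90 in Xist-positive cells without Y-linked UMIs (adjusted p = 0.0099). Ihh was -1.84 ± 0.69 (adjusted p = 0.048), a call close to the threshold that was lost without the E16.5, E18.5 or P1 library (adjusted p 0.085, 0.055 and 0.097). Ptch1 (-0.45 ± 0.28, adjusted p = 0.20) and Hhip (0.42 ± 0.95, adjusted p = 0.74) did not pass. Without the E11.5 library, over the 6 ovary libraries, Ptch1 was -0.69 and passed (adjusted p = 0.023). Ihh did not pass the count filter without the E11.5 or P5 library, so it was not tested there. It was not called with DESeq2 (adjusted p = 0.097), with low counts kept (0.073) or with cells of several classes kept (0.059). Without the E12.5 library, which held the peak, Dhh was -2.98 (adjusted p = 0.024), and without the E18.5 library -4.60 (adjusted p = 0.0028).

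Among 32 other tested genes of the pathway, 12 differed between the classes, a smaller share than the 53.3% over all genes, and the median of the 32 was 0.08. Of the genes that release ligand, Disp1, which frees the lipid-bearing protein from the sending cell, was lower in stroma (-1.04). Of the co-receptors, Gas1, which presents ligand to Ptch1, was higher (2.10), at 325.9 to 552.0 CPM in stroma and 59.1 to 240.9 in pregranulosa cells. In the relay from Smo to the Gli factors, Evc (1.08), Kif7 (0.62) and Spop (0.49) were higher and Stk36 (-0.93) was lower. Of the cilium genes Arl13b (0.73) was higher and Tulp3 (-0.51) lower. Of genes known to respond in mesenchyme elsewhere, Osr1 (5.44), Nr2f2 (3.39) and Foxf2 (2.52) were higher and Mycn (-0.84) was lower. In Xist-positive cells without Y-linked UMIs the call of Foxf2 was lost (1.82, adjusted p = 0.082) and the other 11 were kept. Scube2, not called in all cells (1.565, adjusted p = 0.1045), passed there (1.765, adjusted p = 0.048). Nr2f2 is also one of the genes on which the stroma class was checked.

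**Figure D3:**
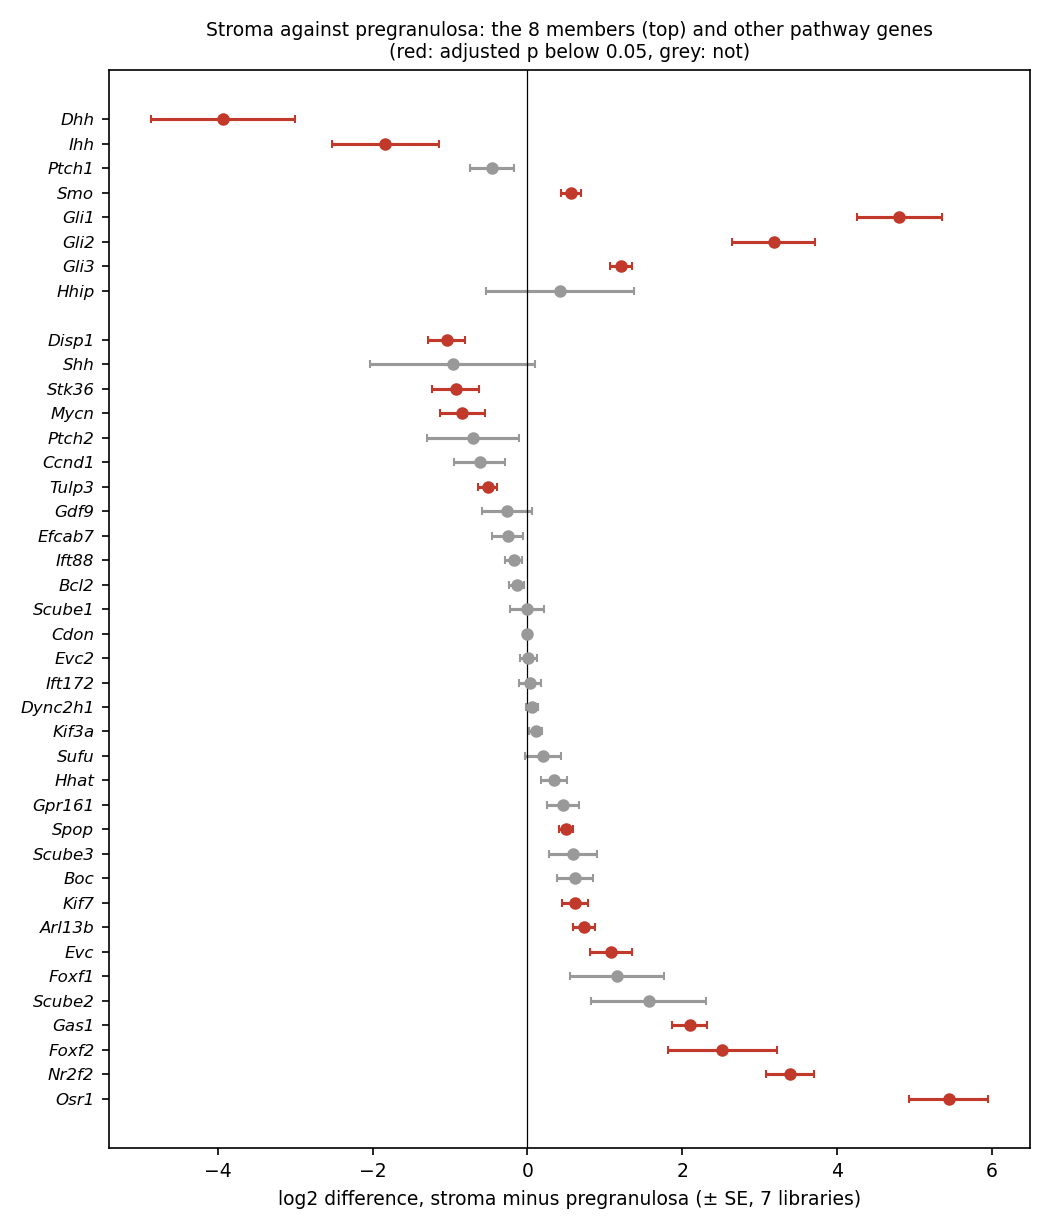
Log2 difference between stroma and pregranulosa cells (positive, higher in stroma) for the 8 members and 32 other pathway genes, with SE over 7 libraries; red marks an adjusted p below 0.05. The Gli factors lie to the right and the ligands to the left, with Gli1 at 4.80 and Dhh at -3.93.

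The course with age was tested as a log-linear trend over the order of the 7 ages. In stroma 7.3% of the 13282 genes tested changed, and of the 6 members with enough counts 0 changed. At an unadjusted p under 0.05 there were also 0 members, of 3110 genes, and DESeq2 called 0 of 6. Dhh and Ihh had too few counts in stroma to be tested. The slopes were -0.43 ± 0.27 log2 units per age for Hhip (adjusted p = 0.38) and 0.10 ± 0.08 for Gli1 (adjusted p = 0.50), and the adjusted p of Ptch1 was 0.86. A straight line is a poor summary of levels that were high at both ends, as for Ptch1 and Hhip. Without the P5 library the slope of Hhip was -1.90 and passed (adjusted p = 0.033). In the pathway list 2 of 29 genes changed. Scube2, which carries ligand away from the sending cell, rose in stroma by 1.21 per age (adjusted p = 0.023), from 0.174 CPM at E11.5 through 21.5 at E16.5 to 40.0 at P5. Ccnd1, a cell cycle gene, fell by 0.57 per age (adjusted p = 0.028).

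In pregranulosa cells 3.87% of the genes tested changed with age (1.65% fell), and of 6 members 1 fell, Hhip. Hhip had a slope of -0.81 ± 0.19 per age (adjusted p = 0.045), and -0.85 in Xist-positive cells (adjusted p = 0.044). This call was lost when genes with low counts were kept (adjusted p = 0.060), without Pax8-positive and mural-marked cells (0.116) and without each library but E16.5, with slopes of -0.95 to -0.67 and adjusted p of 0.048 to 0.17 over the 7 libraries left out in turn. From E16.5 on pregranulosa Hhip did not stand above the germ cell level, though at E16.5 it stood above stroma, which had 0 UMIs. Ptch1 had a slope of 0.22 ± 0.09 that did not pass (unadjusted p = 0.033, adjusted p = 0.22). Dhh had a slope of -0.18 ± 0.30 (adjusted p = 0.80) that was 0.35 in Xist-positive cells. Nr2f2 fell in pregranulosa cells by 0.40 per age (adjusted p = 0.034).

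The difference between the trends of stroma and pregranulosa cells was tested itself, and 4.65% of all genes and 0 of the 8 members passed. An unadjusted p under 0.05 was found for 2 members (3227 genes), and DESeq2 called 1, Smo. Gli1 had a difference of 0.66 ± 0.20 (adjusted p = 0.10), and 1.15 without the P5 library, where it passed (adjusted p = 0.017), as it did in cells with 1000 or more genes and 10% mitochondrial UMIs or fewer (adjusted p = 0.042). Smo had a difference of 0.14 ± 0.04 (adjusted p = 0.10), and with DESeq2 the adjusted p was 0.038. Of the 32 pathway genes 4 passed, all with a higher slope in stroma: Scube2 (1.09), Osr1 (0.68), Evc (0.35) and Gas1 (0.27).

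Within stroma, cells with a Gli1 UMI also had more Ptch1. The 20 to 269 stroma cells per library with a Gli1 UMI had Ptch1 at 91.7 CPM against 42.9 in the other stroma cells at E11.5, 114 against 47.7 at E12.5 and 136 against 69.2 at P5. At the ages between, the values were 37.3 and 16.6 at E14.5, 37.1 and 20.3 at E16.5, 42.2 and 22.0 at E18.5, and 29.4 and 21.9 at P1. Ptch1 was higher in the cells with Gli1 in 7 of 7 libraries, by 1.34 to 2.39 times, and the counting interval lay above 1 in 5 of them (not at E14.5 or P1).

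Hhip showed the same direction where it was expressed. It was 18.8 against 3.57 CPM at E11.5, 13.7 against 4.28 at E12.5 and 6.43 against 1.28 at P5, ratios of 5.26, 3.21 and 5.04 with intervals above 1. The ratio was 0.724 to 1.23 for Smo, 0.548 to 1.62 for Gli2 and 0.646 to 1.80 for Gli3, and the interval lay above 1 in 0 libraries for each. At P1 the Smo interval lay below 1 (0.724, 0.534 to 0.961). Cells with Gli1 were deeper on average, at 6695 to 15062 UMIs per cell by library against 5962 to 12867, and the part of depth in these ratios was not tested beyond the other 3 genes. At E11.5 Gli1, Ptch1 and Hhip were all higher in stroma cells with Y-linked RNA, as described below. The part of sex in the E11.5 ratios was not tested. Cells of a library are not replicates, and no test was made.

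**Figure D4:**
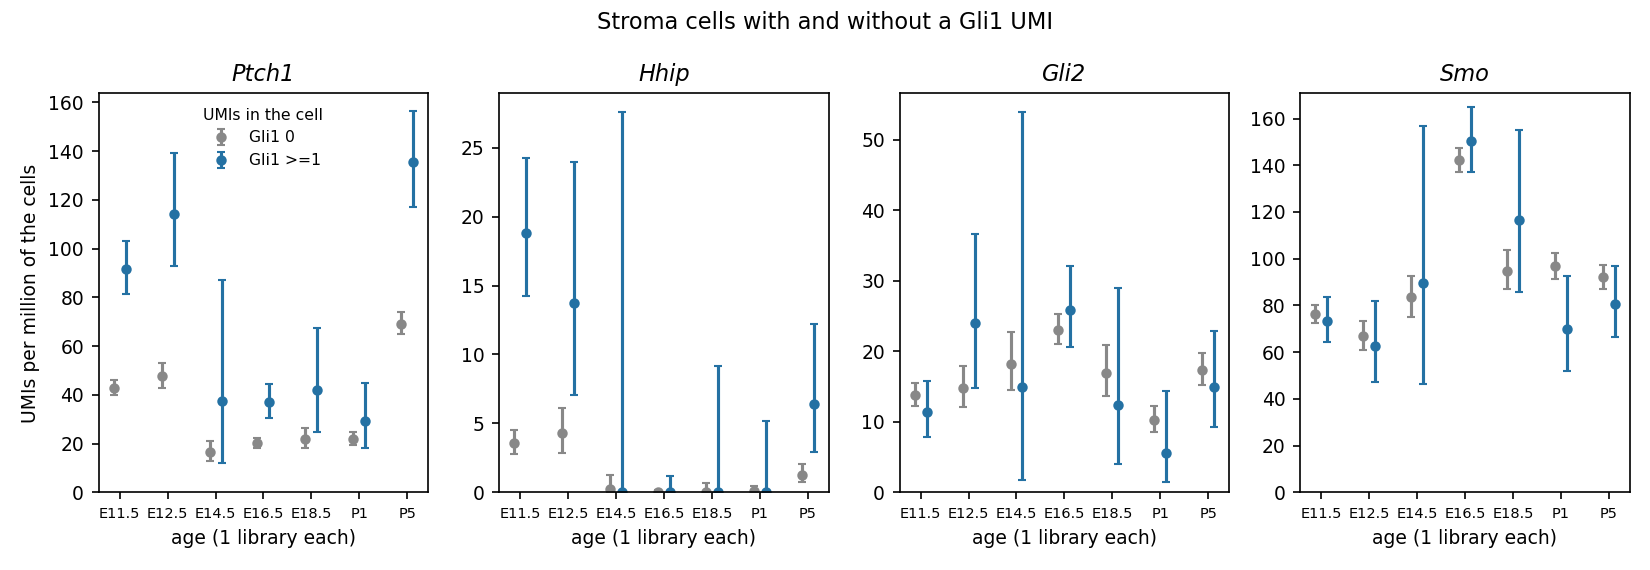
Levels of Ptch1, Hhip, Gli2 and Smo in CPM, by age, in stroma cells with a Gli1 UMI (blue) and without one (grey), 1 library per age, with 95% Poisson intervals. Ptch1 is higher in the blue points in 7 of 7 libraries (1.34 to 2.39 times) and Hhip at E11.5, E12.5 and P5, while Gli2 and Smo lie on either side.

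At E11.5 the response genes were higher in stroma cells with Y-linked RNA than in those with Xist. The 484 stroma cells with a Y-linked UMI and no Xist had Gli1 at 13.2 CPM, Ptch1 at 68.3 and Hhip at 8.77, against 7.72, 38.8 and 4.04 CPM in the 999 Xist-positive cells without Y-linked UMIs. The intervals of the pairs did not overlap for any of the 3 genes. They cover counting error in cells of 1 pooled library, and no test was made between the sexes. At E12.5 only 21 stroma cells had a Y-linked UMI and no Xist. Their ratios to Xist-positive cells were 1.9 (0.597 to 4.67) for Gli1, 1.58 (0.988 to 2.41) for Ptch1 and 2.25 (0.256 to 9.14) for Hhip. At E12.5 the Y-positive supporting cells had Ptch1 at 107 CPM against 50.9 in Xist-positive ones, and Hhip at 5.01 (8 UMIs) against 1.38 CPM. Of the 36 Hhip UMIs of the E12.5 pregranulosa class, 0 lay in the 95 cells that met the Amh, Esr2 and Nr5a2 rule and 1 in the 108 cells with Dhh. At E11.5 the Y-positive supporting cells had Ptch1 at 23.5 against 22.7 CPM and Hhip at 0.939 (1 UMI) against 3.68 CPM (6 UMIs), with overlapping intervals for both genes.

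Stroma cells with marks of mural cells (Rgs5, Notch3 and Cspg4) were compared with other stroma in the 4 libraries that held at least 20 of them. Of the genes tested 1.46% differed, and 0 of 6 members did, with edgeR or DESeq2. Ptch1 was -0.43 ± 0.18 and Smo -0.30 ± 0.13 (unadjusted p 0.038 and 0.040, adjusted p 0.44 and 0.45), the 2 members under an unadjusted p of 0.05 in edgeR, where 1318 genes were. Of 30 pathway genes 2 were lower in the mural-marked cells, Cdon (-1.16, adjusted p = 0.023) and Osr1 (-0.81, adjusted p = 0.046). Both calls were lost in Xist-positive cells without Y-linked UMIs (-1.05 and -0.78, adjusted p 0.058 and 0.082). Steroidogenic-marked stroma, the theca or Leydig state in which Hedgehog response is known, had only 1, 1, 1 and 4 cells at E11.5, E14.5, E16.5 and P5, too few for a level.

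Outside stroma, Gli1 and Hhip were found mainly in cells that met no class rule. Stroma held 54.7% of the 1927 Gli1 UMIs and unclassified cells 30.0%, and for Hhip the shares of 1030 UMIs were 19.3% and 57.0%. Of the 587 unclassified Hhip UMIs 477 came from E11.5, where 5335 of 8256 cells were unclassified and had Gli1 at 8.36, Hhip at 9.32 and Ptch1 at 69.8 CPM. The 1498 unclassified cells at E12.5 had similar levels, with Gli1 at 7.69, Hhip at 9.13 (101 UMIs) and Ptch1 at 65.9 CPM. Cells of the epithelial class at E11.5 had Gli1 at 13.7, Hhip at 12.4 and Ptch1 at 55.6 CPM. Against the E11.5 unclassified cells the intervals overlapped for Hhip only, with Gli1 higher and Ptch1 lower in the epithelial class. Ptch1 in germ cells was 8.90 to 30.1 CPM and Gli3 2.60 to 27.0 CPM. In the 6 libraries with at least 20 germ cells Gli1 was at most 1.01 CPM and Hhip at most 1.065 CPM.

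**Figure D5:**
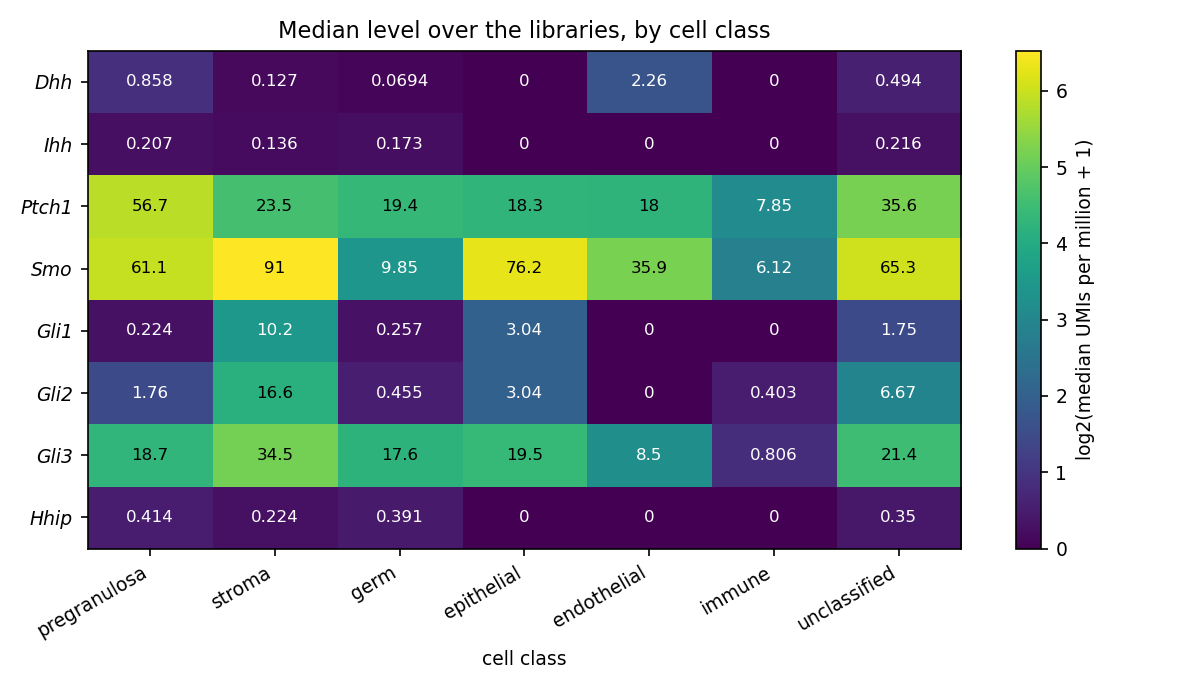
Median level of each member over the libraries with at least 20 cells of a class, printed in each cell in CPM and coloured by log2(CPM + 1), for 7 kinds of cell. Gli1 (10.2), Gli2 (16.6) and Gli3 (34.5) have their highest medians in stroma, Ptch1 (56.7) in pregranulosa cells and Dhh (2.26) in endothelial cells. The endothelial Dhh median is the E12.5 level, which rests on 1 UMI in 21 cells. The medians do not show single ages such as the P5 ligand levels.

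The genes most like Dhh, Ihh, Gli1 and Hhip were sought over 38 sums of a class in a library by Pearson's r of log2(CPM + 1) among 16585 genes. These sums share libraries, and r is a description. Gli1 was closest to Sfrp1 (0.922), Lgi2 (0.915), Ror1 (0.912), Loxl3 (0.911) and Epha3 (0.905), and its r with Gli2 was 0.901. Dhh was closest to Schip1 (0.736), AC110166.1 (0.688), Hsd17b13 (0.683), E330017L17Rik (0.657) and Cnga1 (0.639). The E12.5 pregranulosa sum took 325 of its 434 Dhh UMIs from the 100 cells with a Y-linked UMI and no Xist, and r was not computed without them. Ihh was closest to Serpina1b (0.855), Serpina1a (0.841), Tff3 (0.839), Nepn (0.821) and Ttr (0.813), and Hhip to Mcoln3 (0.880), Saa1 (0.844), Nefl (0.844), Apela (0.830) and the Y-linked gene Kdm5d (0.826).

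The members lie on 6 chromosomes of GRCm38 (GENCODE vM21). Dhh (ENSMUSG00000023000) is at chr15:98891152-98898540 and Ihh (ENSMUSG00000006538) at chr1:74945315-74951672. Ptch1 (ENSMUSG00000021466) is at chr13:63508328-63573598, Smo (ENSMUSG00000001761) at chr6:29735503-29761365 and Hhip (ENSMUSG00000064325) at chr8:79965851-80058006. Gli1 (ENSMUSG00000025407) is at chr10:127329882-127341974, Gli2 (ENSMUSG00000048402) at chr1:118834132-119053619 and Gli3 (ENSMUSG00000021318) at chr13:15463235-15730026. The last exon of Dhh overlaps the first exons of Rhebl1 on the same strand, 2691 bases from the 3′ end of Dhh. Rhebl1 had 18, 67, 74, 101, 29, 37 and 58 UMIs in pregranulosa cells from E11.5 to P5, and it did not have the peaks that Dhh had at E12.5 and P5. Gli1 overlaps Arhgap9 on the opposite strand.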

How the data were processed

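The deposited files hold raw UMI counts for each gene in each cell, which the authors obtained by running Cell Ranger against mm10, with no later normalization (7 libraries, v2 chemistry per the labels; Seurat is also named in the submitters' processing notes). Columns of other samples numbered 0. Cells with at least 200 genes were kept, which removed 1719 of 52542 barcodes. Classes were set by UMI minimums on marker genes: Wnt6 and Kitl at 3, the collagens at 10, Ddx4 and Dazl at 3 (germ), Upk3b and Krt19 at 5 (epithelial), and 3 for endothelial (Cldn5, Cdh5, Esam) and immune (Tyrobp, Fcer1g, Ptprc) genes. Another class of cells and a comparison of subsets of the pregranulosa class are not reported here. Doublets were not removed; leaving out the 5% of cells with the highest Scrublet score (scanpy 1.11.5) was an alternative, and 7.48% of cells met several rules.

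Levels are a class's UMIs of a gene as CPM, with exact 95% Poisson intervals, and shares have exact binomial intervals. Counts were summed per library and class (at least 20 cells) and tested in R 4.3.3 with edgeR 4.0.16 (TMM, filterByExpr, quasi-likelihood F-test, FDR 0.05), and with DESeq2 1.42.0 as an alternative. Libraries are the samples; nothing in the labels gives separate animals, and p-values measure the spread between these libraries. Python 3.11.15 was used otherwise. Members and lists were chosen with earlier results of these data known. Named pathway genes are up to 4 per group with the largest difference among those past the threshold. Alternatives were other size factors, no count filter, leaving out each library, other class minimums and filters, age in days and, chosen after seeing the data, only cells with Xist and no Y-linked UMI.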

Additional observations from a re-analysis of the deposited data

Results flagged for a closer look

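In 4 of the 32 pathway genes tested, against 4.65% of all genes, the trend with age differed between stroma and pregranulosa cells by a test of the difference itself (edgeR's quasi-likelihood test, interaction of class and age over 14 sums of 7 libraries, log2 units per age, stroma minus pregranulosa). The difference was 1.09 for Scube2 (adjusted p = 0.0098), 0.68 for Osr1 (adjusted p = 0.041), 0.35 for Evc (adjusted p = 0.027) and 0.27 for Gas1 (adjusted p = 0.048). Scube2 in stroma was 0.174, 0.127, 6.28, 21.5, 29.6, 26.5 and 40.0 CPM from E11.5 to P5, while in pregranulosa cells it was 1.29 to 8.73 CPM. Osr1 in stroma was 39.9 to 65.3 CPM and in pregranulosa cells 7.42 CPM at E11.5 and 0.437 CPM at P5. Gas1 in pregranulosa cells was 240.9 CPM at E11.5 and 59.1 CPM at P5.

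A signal outside the compared classes was found for Ihh in unclassified cells at E11.5, at 5.14 CPM, against 1.61 CPM in the pregranulosa class of that library and 0.522 CPM in its stroma. The epithelial class of that library was higher still, at 10.5 CPM (33 UMIs in 10 cells). Of the 168 cells of any class with Ihh at this age, 124 also held Shh.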

How the results depend on the processing

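Each age is 1 library and intervals hold counting error only, so differences between ages were not detectable as more than differences between libraries; genes of a few UMIs such as Ihh and Hhip are limited most. No pairing between ages was possible, because each age holds 1 sample and no replicate numbers are shared between ages. The classes were paired within libraries, with the library as a block. Of 348 repeats of a member's test under other settings, 325 kept direction and side of the threshold, 5 lost the call, 2 gained it and 16 turned direction. A further 216 repeats left out 1 library: 190 kept both, 9 lost the call, 3 gained it and 14 turned direction. Where a gene turned direction under a setting, the cause was not tested. With each library left out in turn, the counts of genes called were 6940 to 8410 for stroma against pregranulosa cells, 238 to 1600 for the stroma trend (970 with all), 237 to 637 for the pregranulosa trend (531), 250 to 763 for the difference of trends (720) and 44 to 785 for mural-marked stroma (189). The stroma trend moved by over 1.5 times without E11.5 (238), E12.5 (504), E16.5 (1600), P1 (391) or P5 (536), the pregranulosa trend without E11.5 (237), E12.5 (258) or P1 (300), the difference without E12.5 (276), E14.5 (437) or P1 (250), and the mural comparison without E11.5 (785) or E18.5 (44). DESeq2 called 1935, 1468 and 1285 genes for the stroma trend, the pregranulosa trend and their difference. Age in days gave 509 for the stroma trend. Without a count filter the pregranulosa trend gave 883 and the mural comparison 621, which was 450 with cells of several classes kept and 594 with minimums per 10000 UMIs. Among members the direction turned as follows, none of them called. Hhip was -0.44 in the class comparison with DESeq2 and -0.18 to 0.87 with a library left out. Its difference of trends was -0.16 with DESeq2, -0.018 with cells of several classes, -0.0064 without Scrublet doublets, -0.019 without Pax8-positive and mural-marked cells, and -1.23 to 0.31 with a library left out. In the Xist-positive cells Dhh had a pregranulosa trend of 0.35 and a difference of -0.20; with a library left out these were -1.13 to 0.39 and -0.16 to 1.04. The Gli3 pregranulosa trend was 0.054 with doubled minimums, 0.0082 with minimums per 10000 UMIs and 0.0082 without Scrublet doublets, and -0.063 to 0.098 with a library left out. Gli2 had a stroma trend of -0.0069 with cells of several classes. With a library left out, the stroma trend was -0.23 to 0.12 for Ptch1 and -0.044 to 0.070 for Gli2, the pregranulosa trend -0.10 to 0.0034 for Smo and -0.44 to 0.11 for Gli2, and the difference -0.21 to 0.50 for Gli2. In mural-marked stroma Gli1 was 0.058 and Gli3 0.086 with cells of several classes, Gli2 -0.20 in Xist-positive cells, and Hhip 0.35 with DESeq2 and 0.31 with doubled minimums; with a library left out Gli1 was -0.61 to 0.016, Gli2 -0.046 to 0.20 and Hhip -1.68 to 0.58.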
